A study of Mus musculus and Mus spretus with 18 samples.

Results

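The genes described here are genes of G2 phase and mitosis, the stretch of the cell cycle in which a cell that has copied its DNA prepares to divide and then divides. They were taken from a list of 50 genes by their Ensembl IDs. The rule uses no measured value, but the list was proposed with earlier results of these data known. Of the 50, 32 were found among the 12346 genes of the expression table and all 32 were tested, with no filter on low values. The other 18 were not analysed here: Hmgb2, Nusap1, Ube2c, Tpx2, Top2a, Ndc80, Cks2, Nuf2, Cks1b, Mki67, Ckap2, Cdca3, Ncapd2, Anln, Lbr, Nek2, Cenpa and Plk1. Expression was measured with 1-colour Affymetrix MG-430 2.0 arrays in whole brain without the olfactory bulb, from 18 male mice. The animals were Mus spretus of the strain SPRET/EiJ and Mus musculus of the strain WSB/EiJ, called spretus and musculus here. Brains were collected at day 0, day 14 and day 56 after birth from 3 animals per species and age. Each species is represented by 1 inbred strain, so a difference between species cannot be told apart from a difference between these strains. The labelled tissue could not be checked against marker genes, since the IDs of other genes were not paired with names here.

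Entry into mitosis is driven by the kinase CDK1 bound to a B-type or A-type cyclin. Aurora kinases, kinetochore proteins and spindle motors then attach and align the chromosomes, the spindle checkpoint holds the anaphase-promoting complex until every kinetochore is attached, and the midzone and RhoA pathway cut the cell apart. Transcripts of these genes accumulate in G2 and mitosis and are low in resting cells, in part through the CHR, a short promoter element bound by the DREAM complex in resting cells and by MYBL2 and FOXM1 complexes in dividing cells, and through CCAAT boxes bound by NF-Y. In the newborn rodent brain, dividing cells include glial progenitors and the granule cell precursors of the cerebellum, while most neurons have left the cell cycle.

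Promoter sequences of the members were read from RefSeq windows on GRCm38.p6 that run from 250 bases before to 50 bases after each start. This is the mouse reference genome, and the sequences of SPRET/EiJ and WSB/EiJ were not read. A window was found for 26 of the 32 members, some with more than 1 start, giving 31 windows. Aurkb, Ccna2, Cdc25c, Cdca2, Dlgap5 and Smc4 are named only. The CHR was searched as TTTGAA or TTCGAA and the CCAAT box as CCAAT, on both strands. Of the 26 members, 21 (80.8%) held a CHR match, against 20.2% of 17492 protein-coding genes. A CCAAT match was present in 22 members (84.6%), against 42.3% of protein-coding genes, and at least 2 such matches in 16 members (61.5%), against 14.6%. Both motifs occurred in 19 members (73.1%), against 9.24% of protein-coding genes, and neither in Birc5 and Tacc3 (7.69%), against 46.7%. The matches also lay at particular places: 77.4% of the members' 31 CHR matches were within 50 bases of the start, against 22.4% of 4271 in protein-coding genes. Of the members' 56 CCAAT matches, 75% were in the last 100 bases before the start, against 46.5% of 12037. A CHR and a CCAAT match overlapped once, in Cdca8, and the overlapping windows of genes with several starts were each counted. A match is a description of letters, not of binding.

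**Figure D1:**
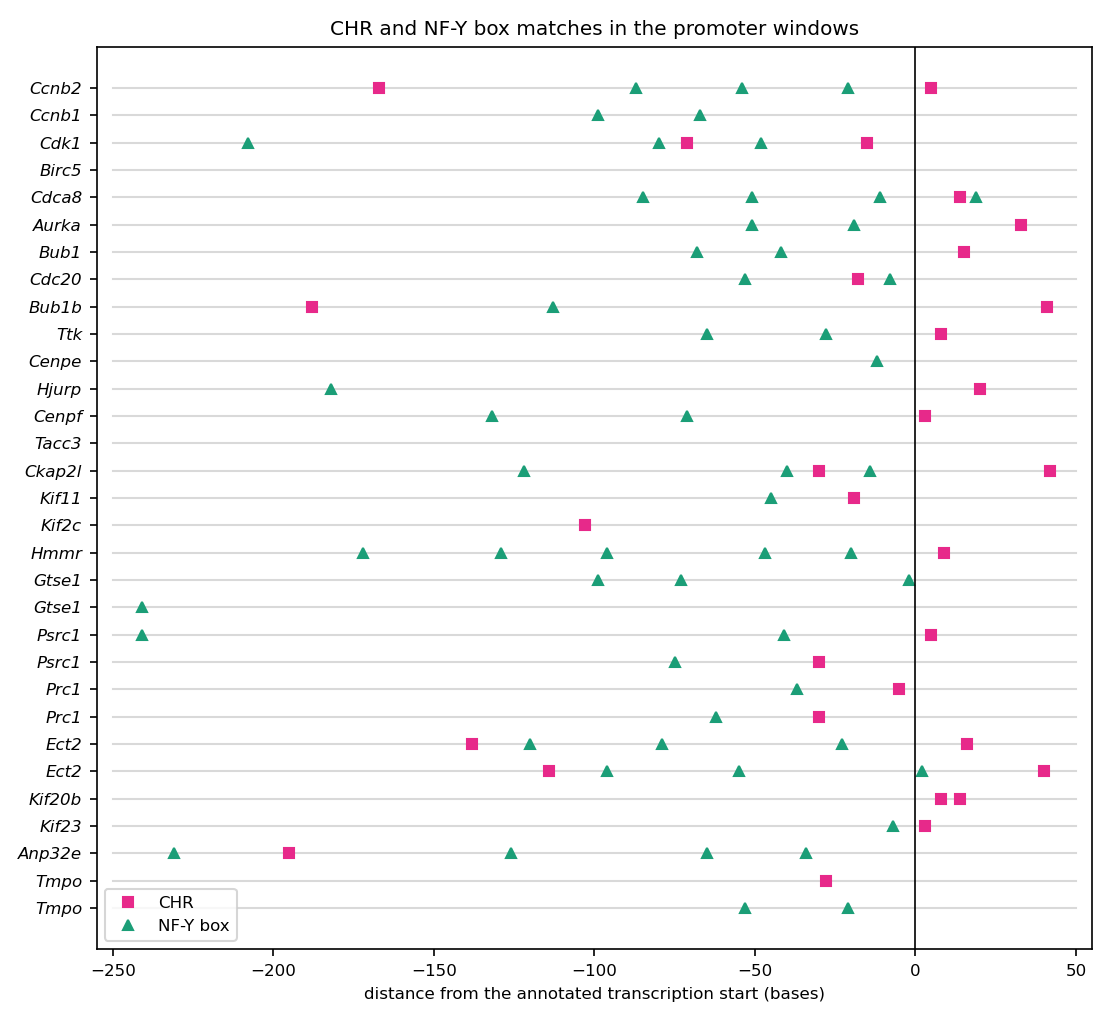
Positions of CHR and NF-Y box (CCAAT) matches on either strand in the members' RefSeq promoter windows; the x axis is the distance in bases from the annotated start (vertical line) and each row is 1 window, with a gene on 2 rows where it has 2 starts. Most CHR matches lie beside the start (77.4% within 50 bases) and most NF-Y box matches within the 100 bases before it (75%).

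The 120 bases before the start are given for 4 members picked by the size of their change to day 14 within their role. There is 1 for each combination of motifs seen in such a stretch. Tmpo was the only nuclear envelope gene found, and its mean log2 change over both species, -1.18, was not among the largest. Cdc20 shows both motifs (chr4:118437344-118437463, minus strand), Bub1 only CCAAT boxes (chr2:127831860-127831979, minus strand), Tmpo at its second start only a CHR (chr10:91170551-91170670, minus strand) and Birc5 neither (chr11:117849117-117849236, plus strand). Capitals mark CHR and CCAAT matches on either strand, and each sequence runs 5′ to 3′ towards the start. The Bub1 window also holds a CHR match that lies outside the stretch printed.
Cdc20: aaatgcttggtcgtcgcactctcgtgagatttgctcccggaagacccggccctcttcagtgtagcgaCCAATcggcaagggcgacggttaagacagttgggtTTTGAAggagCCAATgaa
Bub1: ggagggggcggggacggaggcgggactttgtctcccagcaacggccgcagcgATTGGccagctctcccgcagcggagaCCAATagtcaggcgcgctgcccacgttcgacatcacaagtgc
Tmpo: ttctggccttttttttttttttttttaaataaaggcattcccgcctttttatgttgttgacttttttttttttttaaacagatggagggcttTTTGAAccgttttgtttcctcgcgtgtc
Birc5: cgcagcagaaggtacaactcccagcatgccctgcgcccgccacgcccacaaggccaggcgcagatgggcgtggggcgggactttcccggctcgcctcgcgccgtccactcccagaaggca

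The deposited log2 values ran from 2.89 to 13.82, with array medians from 6.52 to 6.56. Arrays of 1 group correlated across genes at 0.9918 to 0.9956. The precision is limited by 3 arrays per group, and p-values reflect the spread between these animals. The 25th percentile of the genes' mean values was 4.76, called the dim limit here. At day 0, 2 members, Kif20b and Kif23, had a group mean below it in each species. At day 14 there were 12 such members in spretus and 11 in musculus, and at day 56 there were 14 in spretus and 15 in musculus, so the sizes of falls that end there are not exact. At day 14 this holds for Aurkb, Birc5, Bub1b, Cenpe, Ect2, Hmmr, Kif11, Kif20b, Kif23 and Ttk in both species, for Ccnb2 and Cdc25c in spretus and for Ckap2l in musculus. Values of different genes are not compared, because each rests on its own probes.

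Nearly the whole set fell between birth and day 14, in both species. At day 14, 29 of 32 members (90.6%) were lower than at day 0 in spretus (limma, adjusted p under 0.05 over all genes), against 20.3% of all genes that fell and 39.5% called in either direction. In musculus 29 of 32 (90.6%) were lower, against 21.8% of all genes that fell and 41.4% called in either direction. None rose, against 19.2% of all genes in spretus and 19.6% in musculus, and the sign of the change was negative for all 32 in both species. In both species 28 members fell (16.4% of all genes did), and in at least 1 species 30 fell (25.7% of all genes). In whole brain, a smaller share of dividing cells and less RNA of these genes per cell cannot be told apart.

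The median log2 change of the 32 members was -1.17 in spretus, with single members between -2.66 and -0.23, while the median of all genes was 0.03. In musculus the median was -1.23, between -2.5 and -0.07, while the median of all genes was 0. A fall of at least 2-fold was seen in 21 members in spretus and 19 in musculus, 18 of them in both, whereas 3.09% of all genes in spretus and 3.44% in musculus fell that far. The day 14 arrays all lay below the day 0 arrays for 29 of 32 members in spretus, against 24.7% of all genes, and for 29 of 32 in musculus, against 25.5%. The number of members that fell was 28 to 30 in each species with any 1 array left out. In these runs 35% to 36.8% of all genes in spretus and 37.4% to 39.6% in musculus were called in either direction.

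The mean of the 32 members, each taken relative to its own mean over the 18 arrays, was highest at day 0 in both species. In spretus it was 0.91 ± 0.14, -0.38 ± 0.03 and -0.6 ± 0.02 at days 0, 14 and 56 (log2, SD, n = 3). In musculus it was 0.91 ± 0.16, -0.33 ± 0.14 and -0.51 ± 0.03. The day 0 arrays stand clear of the others. Replicate 2 at day 0 was the lowest array of its group in both species, at 0.75 against 0.96 and 1.02 in spretus and 0.73 against 0.99 and 1.01 in musculus. It was the lowest array for 23 of 32 members in spretus (30% of all genes) and for 24 of 32 in musculus (31.8% of all genes). Without that array 29 members fell in spretus and 30 in musculus, against 35.9% and 37.5% of all genes called in either direction.

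**Figure D2:**
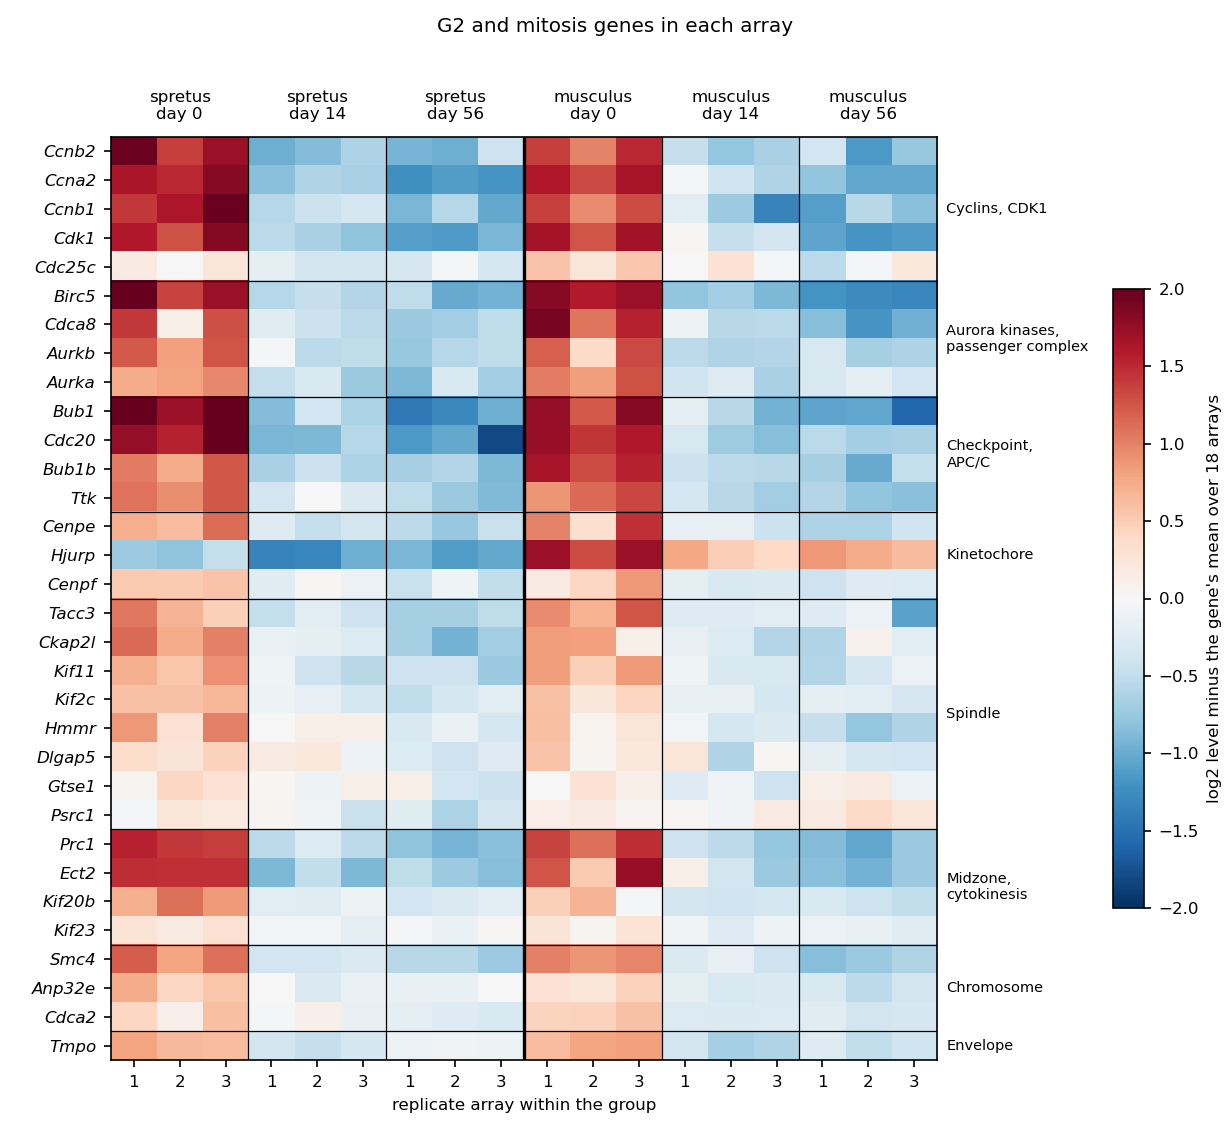
Log2 expression of each of the 32 members (rows, ordered by role) in each of the 18 arrays (columns, spretus left of musculus, ages from day 0 to day 56), relative to the member's mean over all arrays. Colours end at 2 on either side of 0; the 3 day 0 columns of each species are the high ones, and the Hjurp row also splits by species.

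The 4 genes of the spindle checkpoint and its target all fell in both species. Bub1 (ENSMUSG00000027379), a checkpoint kinase that recruits the other checkpoint proteins to kinetochores, read 7.74, 7.29 and 7.83 (day 0), 4.72, 5.2 and 4.95 (day 14) and 4.15, 4.29 and 4.6 (day 56) in spretus. In musculus it read 7.34, 6.81 and 7.4 (day 0), 5.38, 5.03 and 4.64 (day 14) and 4.53, 4.54 and 4.01 (day 56). Every day 14 and day 56 array lay below every day 0 array of its species. The day 14 value was 6.34-fold lower than day 0 in spretus (log2 change -2.66 ± 0.21 SE, adjusted p = 1.69e-08) and 4.49-fold lower in musculus (-2.17 ± 0.21 SE, adjusted p = 1.79e-07). Cdc20 (ENSMUSG00000006398), the activator of the anaphase-promoting complex that the checkpoint restrains, read 8.48, 8.25 and 8.77 (day 0), 5.8, 5.81 and 6.14 (day 14) and 5.57, 5.69 and 4.91 (day 56) in spretus. In musculus Cdc20 read 8.46, 8.14 and 8.31 (day 0), 6.39, 6.01 and 5.87 (day 14) and 6.17, 6.03 and 6.06 (day 56). Day 0 was again apart from both later ages, and at day 56 the 3 spretus arrays lay below the 3 musculus arrays. By day 14 Cdc20 had fallen 5.98-fold in spretus (adjusted p = 4.29e-09) and 4.65-fold in musculus (adjusted p = 2.28e-08). The other members were Bub1b, with a log2 change of -1.58 in spretus and -1.99 in musculus, and the checkpoint kinase gene Ttk, with -1.32 in spretus and -1.65 in musculus.

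Of the cyclins and CDK1 with its activator, 5 of 5 fell in spretus and 4 of 5 in musculus. Ccnb2 (ENSMUSG00000032218), a B-type cyclin, read 7.5, 6.92 and 7.27 (day 0), 4.56, 4.68 and 4.92 (day 14) and 4.61, 4.57 and 5.12 (day 56) in spretus. In musculus it read 6.93, 6.53 and 7.04 (day 0), 5.08, 4.76 and 4.89 (day 14) and 5.16, 4.39 and 4.78 (day 56). The values at days 14 and 56 intermingled and stood apart from day 0, with a fall by day 14 of 5.7-fold in spretus (-2.51 ± 0.2 SE, adjusted p = 1.63e-08) and 3.8-fold in musculus (-1.93 ± 0.2 SE, adjusted p = 3.56e-07). Ccna2 (ENSMUSG00000027715), cyclin A2, which acts in S phase and at mitotic entry, read 7.86, 7.75 and 8.05 (day 0), 5.4, 5.63 and 5.58 (day 14) and 5.01, 5.11 and 5.05 (day 56) in spretus. In musculus Ccna2 read 7.84, 7.56 and 7.89 (day 0), 6.2, 5.83 and 5.63 (day 14) and 5.45, 5.2 and 5.19 (day 56). The 3 ages did not overlap in either species. The fall to day 14 was 5.08-fold in spretus (adjusted p = 2.5e-10) and 3.68-fold in musculus (adjusted p = 2.96e-09). Cdk1 (ENSMUSG00000019942), the kinase that these cyclins activate, read 8.25, 7.92 and 8.49 (day 0), 6.11, 6.0 and 5.85 (day 14) and 5.55, 5.52 and 5.73 (day 56) in spretus. In musculus Cdk1 read 8.31, 7.9 and 8.33 (day 0), 6.67, 6.19 and 6.26 (day 14) and 5.59, 5.47 and 5.51 (day 56). It was highest at day 0 and lowest at day 56 without overlap in both species, and fell 4.71-fold by day 14 in spretus (adjusted p = 2.03e-09) and 3.5-fold in musculus (adjusted p = 2.29e-08). Ccnb1, the other B-type cyclin, changed by -2.11 in spretus and -1.95 in musculus on the log2 scale.

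The 4 genes of Aurora kinases and the chromosomal passenger complex, which corrects faulty attachments and starts cytokinesis, all fell in both species. Birc5 (ENSMUSG00000017716), survivin, the subunit that brings the complex to centromeres, read 7.27, 6.62 and 7.0 (day 0), 4.7, 4.81 and 4.68 (day 14) and 4.76, 4.26 and 4.32 (day 56) in spretus. In musculus it read 7.09, 6.86 and 6.99 (day 0), 4.48, 4.59 and 4.37 (day 14) and 4.07, 4.0 and 3.96 (day 56). All later arrays were lower than those of day 0, and the day 14 value was 4.7-fold lower in spretus (-2.23 ± 0.14 SE, adjusted p = 1.16e-09) and 5.65-fold lower in musculus (-2.5 ± 0.14 SE, adjusted p = 2.01e-10), sizes that end below the dim limit. Cdca8 (ENSMUSG00000028873), borealin, another subunit, read 6.94, 5.64 and 6.82 (day 0), 5.29, 5.09 and 4.98 (day 14) and 4.79, 4.83 and 5.02 (day 56) in spretus. In musculus Cdca8 read 7.42, 6.6 and 7.07 (day 0), 5.42, 4.97 and 4.98 (day 14) and 4.67, 4.35 and 4.57 (day 56). Replicate 2 at day 0 was more than 1 log2 unit below its fellows in spretus, yet still above day 14. The day 14 value was 2.54-fold lower than day 0 in spretus (adjusted p = 0.000398) and 3.74-fold lower in musculus (adjusted p = 1.01e-05). Aurka, the centrosome and spindle kinase, changed by -1.34 in spretus and -1.48 in musculus on the log2 scale. Aurkb, the kinase of the complex, changed by -1.46 in spretus and -1.53 in musculus.

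**Figure D3:**
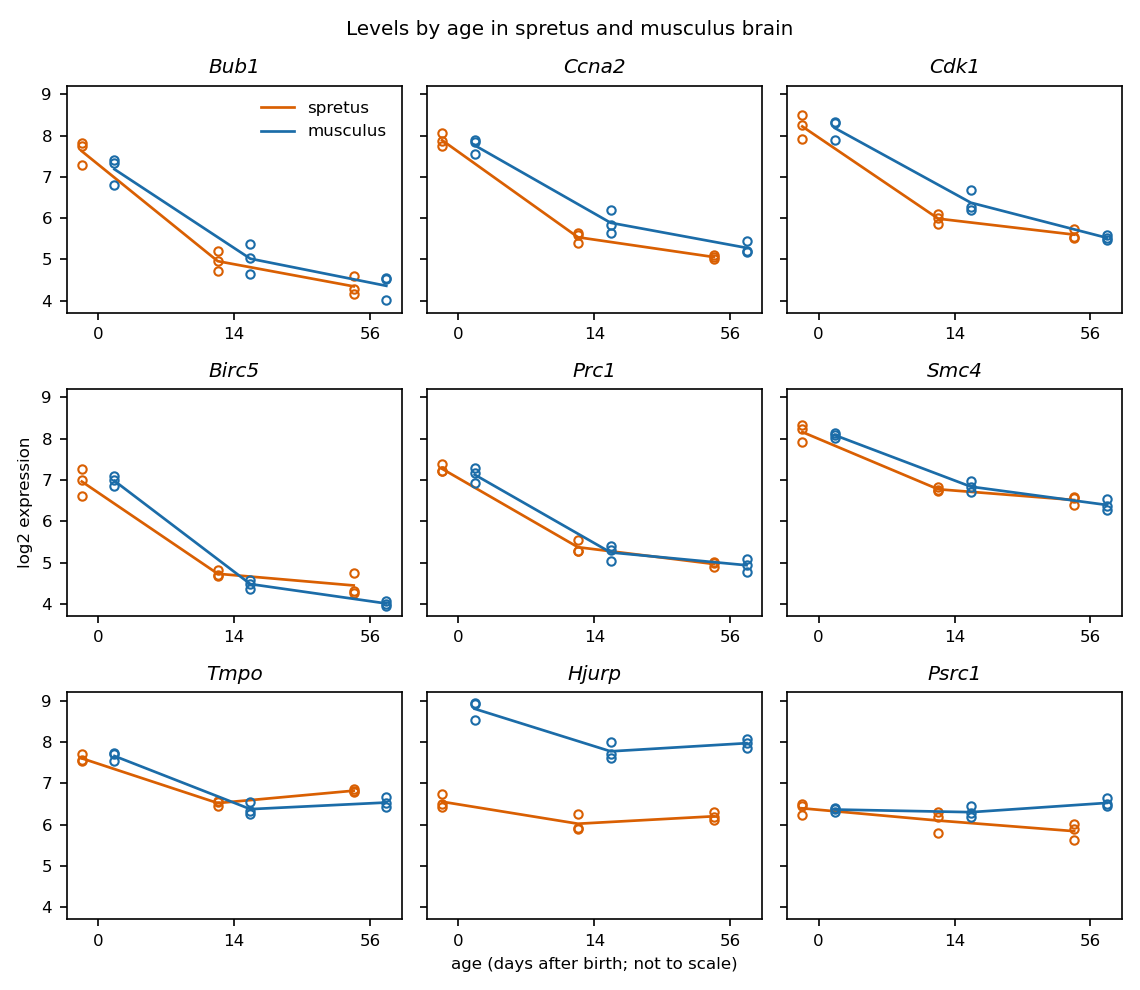
Deposited log2 expression of 9 members in every array against age in days (evenly spaced, not to scale), with spretus and musculus in separate colours; points are arrays and lines join the group means (n = 3). In Bub1, Ccna2, Cdk1 and Birc5 all later arrays lie below the day 0 arrays, and Hjurp lies lower in spretus at every age; heights of different genes are not comparable.

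The 3 kinetochore and centromere genes fell in both species, too. Cenpe (ENSMUSG00000045328), the kinetochore motor that carries chromosomes to the spindle equator, read 5.26, 5.15 and 5.64 (day 0), 4.28, 4.06 and 4.17 (day 14) and 4.0, 3.78 and 4.08 (day 56) in spretus. In musculus Cenpe read 5.52, 4.86 and 5.99 (day 0), 4.37, 4.36 and 4.1 (day 14) and 3.91, 3.89 and 4.13 (day 56). The fall to day 14 was 2.27-fold in both, with adjusted p = 0.000107 in spretus and 9.91e-05 in musculus, and all later group means lay below the dim limit. Hjurp (ENSMUSG00000044783), the chaperone that loads the centromeric histone CENP-A, read 6.49, 6.42 and 6.75 (day 0), 5.89, 5.92 and 6.25 (day 14) and 6.31, 6.1 and 6.19 (day 56) in spretus. In musculus Hjurp read 8.93, 8.53 and 8.95 (day 0), 7.99, 7.71 and 7.62 (day 14) and 8.08, 7.97 and 7.86 (day 56). Its spretus arrays were all lower than any musculus array, at every age. It fell by day 14 all the same, 1.45-fold in spretus (-0.53 ± 0.13 SE, adjusted p = 0.00356) and 2.04-fold in musculus (-1.03 ± 0.13 SE, adjusted p = 5.61e-06). Cenpf, a large protein of the outer kinetochore, changed by -0.66 in spretus and -0.75 in musculus, and both changes passed the test.

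Among the 8 spindle genes, 5 fell in spretus and 6 in musculus. Tacc3 (ENSMUSG00000037313), which stabilises the microtubule bundles that hold kinetochores, read 6.72, 6.34 and 6.14 (day 0), 5.18, 5.43 and 5.25 (day 14) and 5.0, 5.0 and 5.15 (day 56) in spretus. In musculus it read 6.6, 6.36 and 6.92 (day 0), 5.4, 5.41 and 5.45 (day 14) and 5.41, 5.54 and 4.59 (day 56). Day 0 did not overlap with day 14, and the difference was 2.17-fold in spretus (adjusted p = 0.000167) and 2.31-fold in musculus (adjusted p = 6.93e-05). Ckap2l (ENSMUSG00000048327), a spindle protein described in neural progenitors of the mouse, read 6.1, 5.71 and 5.97 (day 0), 4.83, 4.78 and 4.7 (day 14) and 4.3, 4.02 and 4.27 (day 56) in spretus. In musculus Ckap2l read 5.81, 5.79 and 5.09 (day 0), 4.8, 4.7 and 4.39 (day 14) and 4.36, 5.06 and 4.76 (day 56). It was 2.22-fold lower at day 14 than at day 0 in spretus (adjusted p = 7.14e-05) and 1.91-fold lower in musculus (adjusted p = 0.000525). Kif11, the motor that pushes the spindle poles apart, fell as well (-1.08 in spretus, -0.96 in musculus). Kif2c, a motor that takes microtubules apart, fell by less than 1 log2 unit (-0.81 in spretus, -0.63 in musculus), as did Hmmr, a spindle assembly factor (-0.64 in spretus, -0.53 in musculus). The Hmmr call in musculus was lost without day 0 replicate 1 (adjusted p = 0.079) or day 14 replicate 2 (adjusted p = 0.0512).

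Genes of the midzone and of cytokinesis all fell, 4 of 4 in each species. Prc1 (ENSMUSG00000038943), which bundles the antiparallel microtubules of the midzone, read 7.38, 7.23 and 7.21 (day 0), 5.29, 5.54 and 5.29 (day 14) and 5.02, 4.89 and 4.99 (day 56) in spretus. In musculus it read 7.18, 6.92 and 7.29 (day 0), 5.4, 5.3 and 5.04 (day 14) and 4.95, 4.78 and 5.08 (day 56). Its day 0 and day 14 arrays were separate, 3.73-fold apart in spretus (-1.9 ± 0.12 SE for day 14, adjusted p = 7.1e-10) and 3.69-fold apart in musculus (-1.88 ± 0.12 SE, adjusted p = 5.6e-10). Ect2 (ENSMUSG00000027699), the exchange factor that turns on RhoA at the cleavage site, read 5.78, 5.76 and 5.76 (day 0), 3.4, 3.81 and 3.41 (day 14) and 3.79, 3.58 and 3.45 (day 56) in spretus. In musculus Ect2 read 5.56, 4.83 and 6.04 (day 0), 4.43, 3.94 and 3.57 (day 14) and 3.47, 3.36 and 3.56 (day 56). Its day 0 arrays lay close together in spretus and were spread widely in musculus. Ect2 fell 4.68-fold by day 14 in spretus (adjusted p = 4.84e-07) and 2.83-fold in musculus (adjusted p = 4.08e-05), again to values below the dim limit. Kif20b, a kinesin of cytokinesis, changed by -1.07 in spretus and -0.75 in musculus. Kif23, a motor of the centralspindlin complex, changed by -0.35 in spretus and -0.34 in musculus. All group means of Kif20b and Kif23 lay below the dim limit, also at day 0, so the sizes of their changes are not exact.

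Chromosome structure genes fell in 3 of 3 cases in each species, and so did the nuclear envelope gene. Smc4 (ENSMUSG00000034349), a core subunit of both condensins, read 8.34, 7.92 and 8.23 (day 0), 6.75, 6.74 and 6.84 (day 14) and 6.57, 6.58 and 6.4 (day 56) in spretus. In musculus Smc4 read 8.14, 8.02 and 8.1 (day 0), 6.84, 6.97 and 6.71 (day 14) and 6.28, 6.38 and 6.53 (day 56). Its ages did not overlap in either species, with a fall to day 14 of 2.61-fold in spretus (adjusted p = 1.01e-08) and 2.38-fold in musculus (adjusted p = 2.94e-08). Anp32e (ENSMUSG00000015749), a chaperone of the histone variant H2A.Z, read 9.54, 9.21 and 9.35 (day 0), 8.79, 8.51 and 8.66 (day 14) and 8.64, 8.64 and 8.79 (day 56) in spretus. In musculus Anp32e read 9.09, 9.03 and 9.25 (day 0), 8.61, 8.48 and 8.5 (day 14) and 8.49, 8.27 and 8.43 (day 56). The fall was 1.64-fold by day 14 in spretus (adjusted p = 1.54e-05) and 1.51-fold in musculus (adjusted p = 9.68e-05), and the gene stayed far above the dim limit. Tmpo (ENSMUSG00000019961), the gene of the lamina-associated LAP2 proteins, read 7.7, 7.57 and 7.54 (day 0), 6.55, 6.45 and 6.56 (day 14) and 6.8, 6.85 and 6.81 (day 56) in spretus. In musculus Tmpo read 7.54, 7.7 and 7.74 (day 0), 6.55, 6.25 and 6.32 (day 14) and 6.66, 6.42 and 6.52 (day 56). Day 56 arrays lay above all 3 day 14 arrays in spretus. The fall from birth to day 14 was 2.12-fold in spretus (adjusted p = 3.52e-08) and 2.44-fold in musculus (adjusted p = 3.31e-09). Cdca2, which brings a phosphatase to chromatin at mitotic exit, changed by -0.39 in spretus and -0.77 in musculus, and both changes passed the test.

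The members that missed the threshold in this step were 3 in each species, 4 genes in all. Dlgap5 (ENSMUSG00000037544), a stabiliser of kinetochore microtubules, read 5.35, 5.26 and 5.47 (day 0), 5.18, 5.22 and 4.89 (day 14) and 4.73, 4.59 and 4.74 (day 56) in spretus. In musculus it read 5.58, 5.05 and 5.21 (day 0), 5.25, 4.4 and 5.02 (day 14) and 4.82, 4.66 and 4.62 (day 56). Day 14 overlapped with day 0 in musculus but not in spretus. In musculus the log2 change was -0.39 (adjusted p = 0.0774), beside -0.27 in spretus (adjusted p = 0.242). Gtse1 (ENSMUSG00000022385), a microtubule-bound protein that also holds down p53 after DNA damage, read 6.59, 6.95 and 6.82 (day 0), 6.58, 6.43 and 6.66 (day 14) and 6.66, 6.16 and 6.11 (day 56) in spretus. In musculus Gtse1 read 6.54, 6.83 and 6.66 (day 0), 6.28, 6.46 and 6.12 (day 14) and 6.65, 6.72 and 6.42 (day 56). Its day 14 arrays were below those of day 0 in musculus only. Gtse1 fell there (-0.39, adjusted p = 0.0343) and in spretus had a change of -0.23 (adjusted p = 0.23). The musculus call was lost without replicate 2 or 3 of day 0 or replicate 1 or 3 of day 14, with an adjusted p of up to 0.144. Psrc1 (ENSMUSG00000068744), a regulator of spindle microtubule dynamics, read 6.23, 6.5 and 6.45 (day 0), 6.3, 6.19 and 5.8 (day 14) and 6.01, 5.62 and 5.89 (day 56) in spretus. In musculus Psrc1 read 6.38, 6.41 and 6.3 (day 0), 6.27, 6.19 and 6.44 (day 14) and 6.44, 6.64 and 6.49 (day 56). The day 14 arrays overlapped with day 0 in both species, with changes of -0.3 in spretus (adjusted p = 0.0739) and -0.07 in musculus (adjusted p = 0.735). Cdc25c (ENSMUSG00000044201), the phosphatase that activates CDK1, read 4.89, 4.73 and 4.96 (day 0), 4.54, 4.35 and 4.36 (day 14) and 4.39, 4.68 and 4.37 (day 56) in spretus. In musculus Cdc25c read 5.3, 4.97 and 5.26 (day 0), 4.72, 5.01 and 4.68 (day 14) and 4.2, 4.68 and 4.94 (day 56). Its day 14 arrays were below those of day 0 in spretus only. It fell there (-0.45, adjusted p = 0.0281), and in musculus its change was -0.37 (adjusted p = 0.0633). The spretus call was lost without replicate 1 or 3 of day 0 or replicate 2 or 3 of day 14, with an adjusted p of up to 0.0935. With the replicate number as a block, Dlgap5 passed in musculus (adjusted p = 0.0443), and with only the arrays of the contrast Cdc25c did (adjusted p = 0.0478). Leaving out 1 array also moved missed calls past the threshold: Cdc25c without musculus day 0 or day 14 replicate 2 (adjusted p = 0.0349 and 0.0332), Dlgap5 without musculus day 0 replicate 2 or day 14 replicate 1 (0.0414 and 0.0119), and Psrc1 without spretus day 0 or day 14 replicate 1 (0.042 and 0.0288).

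The changes were also set beside the motifs. The median log2 change from day 0 to day 14, averaged over both species, was -1.18 in 21 members with a CHR match and -1.18 in 5 without. It was -1.3 in 22 members with a CCAAT match and -1.03 in 4 without. Birc5 and Tacc3, which had neither, changed by -2.37 and -1.16 on this average.

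From day 14 to day 56 few members passed the threshold. In spretus 3 of 32 members (9.38%) were lower at day 56, against 4.16% of all genes that fell and 8.13% called in either direction. In musculus 4 of 32 (12.5%) were lower, against 6.82% of all genes that fell and 11.9% in either direction. None rose at that threshold, against 3.98% of all genes in spretus and 5.08% in musculus. At an unadjusted p under 0.05, 10 members were lower at day 56 in spretus, against 11.8% of all genes, and 9 in musculus, against 12.7%. At that p 1 member was higher in each species, Tmpo in spretus (0.3, adjusted p = 0.051) and Gtse1 in musculus (0.31, adjusted p = 0.179). The median log2 change was -0.24 in spretus and -0.13 in musculus, beside medians over all genes of -0.01 in spretus and 0.02 in musculus. Of the 32, 19 had a negative change in both species, and the share of all genes that did was not counted. At day 56 all arrays lay below those of day 14 for 13 members in spretus (40.6%), against 14.5% of all genes, and for 8 in musculus (25%), against 13.8%.

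Ccna2 fell in both species in this later step, by 0.48 ± 0.13 on the log2 scale in spretus (SE, adjusted p = 0.0306) and by 0.61 ± 0.13 in musculus (adjusted p = 0.00606). In spretus Prc1 (-0.41, adjusted p = 0.0378) and Ttk (-0.48, adjusted p = 0.0388) fell as well. In musculus Cdk1 (-0.85 ± 0.15, adjusted p = 0.00127), Smc4 (-0.44, adjusted p = 0.0105) and Birc5 (-0.47, adjusted p = 0.039) fell. The means of Ttk in spretus and of Birc5 in musculus lay below the dim limit at day 14 and at day 56. The Cdk1 value in spretus was -0.39 (adjusted p = 0.121). Bub1 had changes of -0.61 in spretus (adjusted p = 0.0832) and -0.66 in musculus (adjusted p = 0.052). Bub1 in musculus passed in 5 of the alternatives, with an adjusted p as low as 0.0235 without day 14 replicate 3. The counts changed when single arrays were left out, as did the shares of all genes called. In spretus no member was called without replicate 2 or 3 of either day 14 or day 56, against 4.33% to 5.08% of all genes. Without replicate 1 of day 56, 1 was called, against 5.74% of all genes. In musculus 2 were called without replicate 2 of day 14 or replicate 1 of day 56, against 8.27% and 8.73% of all genes. With all arrays these shares were 8.13% in spretus and 11.9% in musculus. Of the musculus calls, Cdk1 and Ccna2 passed in every alternative run, and Birc5 was lost without any 1 of the 6 arrays (adjusted p = 0.0522 to 0.131). No spretus call passed in every one.

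**Figure D4:**
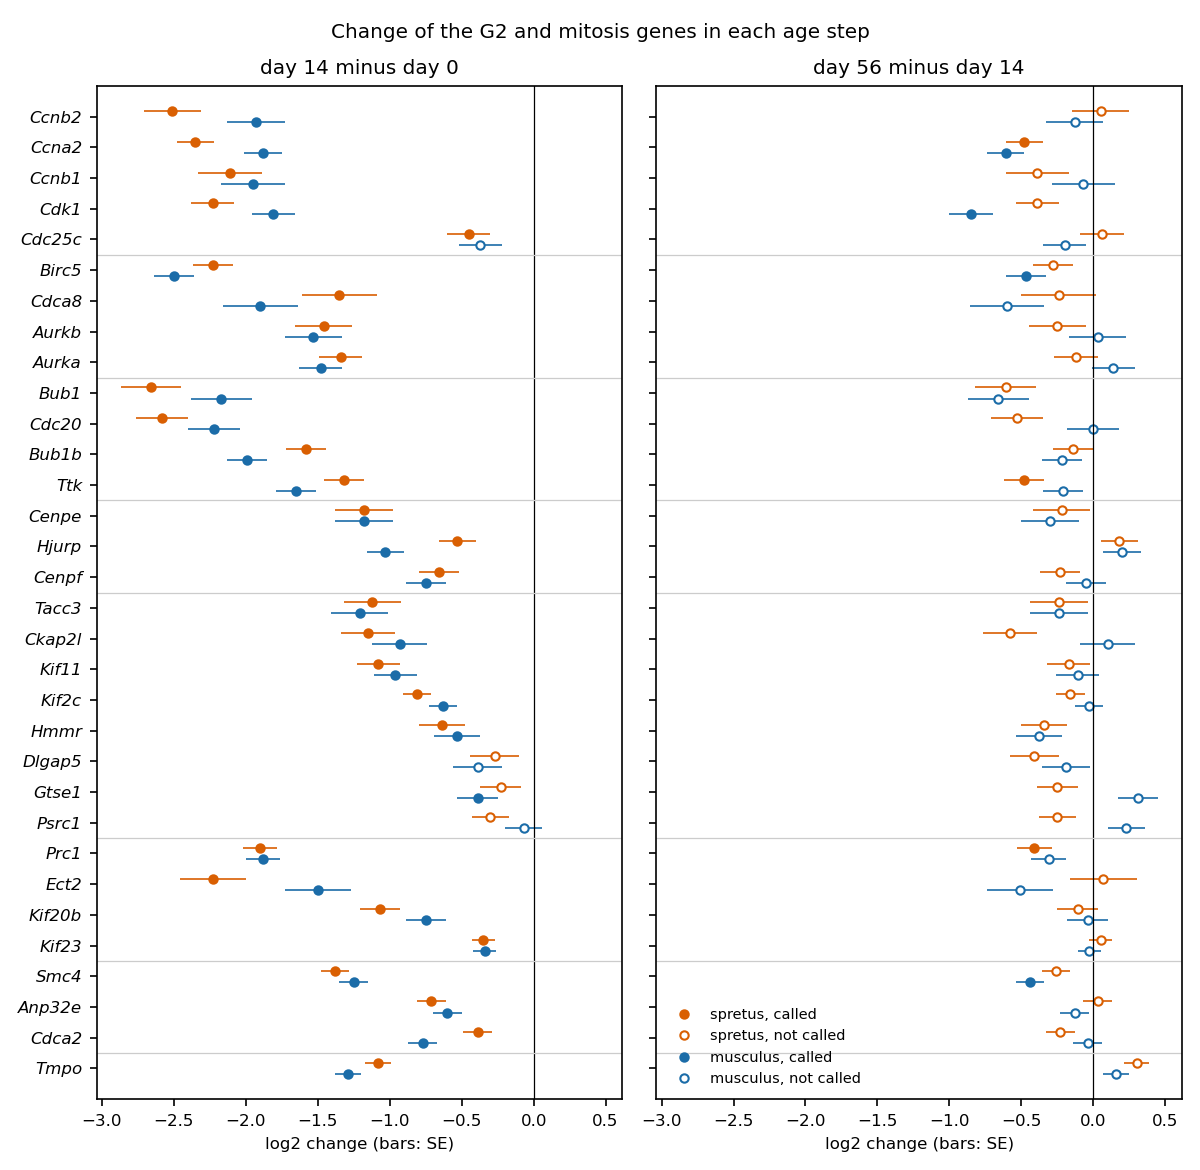
Log2 change of each of the 32 members from day 0 to day 14 (left panel) and from day 14 to day 56 (right panel), spretus above musculus for each member, with error bars of 1 SE from the limma fit and filled points where the adjusted p is under 0.05. On the left all points lie below 0, from -2.66 for Bub1 in spretus to -0.07 for Psrc1 in musculus; on the right they lie between -0.85 and 0.31, and 7 are filled.

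The share of the fall reached by day 14 was computed for the members with the clearest falls. Of the members that fell at least 2-fold from day 0 to day 56, 20 in spretus had covered a median of 84.8% of that fall by day 14, from 66.7% to 103%. In musculus 19 members had covered a median of 85.9%, from 68.1% to 114%. All genes with such a fall had medians of 83.2% in spretus (512 genes) and 81.3% in musculus (609 genes), close to the members' medians. Of these members, 10 in spretus and 9 in musculus had a day 56 mean below the dim limit. By day 14, 8 of them in spretus and 7 in musculus were already below it, so their shares are not exact. The median of those below the limit at day 56 was 86.1% in spretus and 84.2% in musculus. It was 84.4% for the other 10 in spretus and 89.8% for the other 10 in musculus. Of the other 10 in spretus, 1, Ccnb2, was below the limit at day 14.

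The members called between the species were counted beside all genes called. At day 0, 3 members were called, 1 higher and 2 lower in spretus, against 14.3% of all genes called, 7.44% higher and 6.9% lower. At day 14, 1 was called, lower in spretus, against 13.1% of all genes called, 6.3% lower and 6.84% higher. At day 56, 5 (15.6%) were called, 2 higher and 3 lower in spretus, against 14.3% of all genes called, 7.59% higher and 6.71% lower. Over the 3 ages 7 members (21.9%) were called at least once, against 27.3% of all genes, and 25 were called at none. These shares lay near or below those of all genes.

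Hjurp was the member called at all 3 ages. With the values given above, it was 4.75-fold lower in spretus than in musculus at day 0 (log2 difference -2.25 ± 0.13 SE, adjusted p = 1.43e-08), 3.37-fold lower at day 14 (adjusted p = 3.84e-07) and 3.42-fold lower at day 56 (adjusted p = 2.07e-07). The authors' list of masked probes held 13 probes of Hjurp, the most of any member, whose median was 1.5. The part of the masked probes in this difference was not tested. Of the members with no masked probe, 2 of 12 were called between species at some age, against 13.6% of all such genes, and of those with any, 5 of 20, against 32.1%.

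The other species calls were smaller. Bub1b (ENSMUSG00000040084), the checkpoint protein BUBR1 that holds CDC20 inactive, read 6.19, 5.89 and 6.39 (day 0), 4.51, 4.72 and 4.52 (day 14) and 4.49, 4.57 and 4.26 (day 56) in spretus. In musculus Bub1b read 6.8, 6.45 and 6.69 (day 0), 4.73, 4.63 and 4.6 (day 14) and 4.49, 4.14 and 4.68 (day 56). Its day 0 arrays were all lower in spretus (-0.49 ± 0.14 SE, adjusted p = 0.0277) and by day 14 all its arrays were below the dim limit. Kif20b (ENSMUSG00000024795) read 4.55, 4.93 and 4.68 (day 0), 3.62, 3.59 and 3.74 (day 14) and 3.45, 3.54 and 3.62 (day 56) in spretus. In musculus Kif20b read 4.31, 4.52 and 3.81 (day 0), 3.47, 3.44 and 3.48 (day 14) and 3.53, 3.42 and 3.34 (day 56). It was higher in spretus at day 0 (0.51 ± 0.14 SE, adjusted p = 0.0177), in values that for all but 1 array lay below the dim limit. At day 56, Cdc20 (-0.7 ± 0.18 SE, adjusted p = 0.0152) and Psrc1 (-0.68 ± 0.13 SE, adjusted p = 0.00158) were lower in spretus than in musculus, while Birc5 (0.44, adjusted p = 0.0476) and Tmpo (0.28, adjusted p = 0.0449) were higher. The day 56 means of Birc5, 4.45 in spretus and 4.01 in musculus, lay below the dim limit. Psrc1 passed in all 13 alternatives and Cdc20 in 11, failing without musculus replicate 1 (adjusted p = 0.053) or spretus replicate 3 (0.0853), while Tmpo passed in 5 and Birc5 in 4. At day 0, Bub1b was lost without spretus replicate 1 or 2 or musculus replicate 1 or 3 (adjusted p up to 0.147), and Kif20b without spretus replicate 2 (0.0956) or musculus replicate 3 (0.0883). So 1 member was called at day 0 without musculus replicate 3, against 10.3% of all genes. At day 14, Ccna2 was called besides Hjurp without musculus replicate 3 (-0.47, adjusted p = 0.0337). At day 56, 3 were called without musculus replicate 2 or 3, and 2 without spretus replicate 3. The shares of all genes called in these day 56 runs are not given here. So a loss of member calls cannot be told apart from a general loss of calls.

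**Figure D5:**
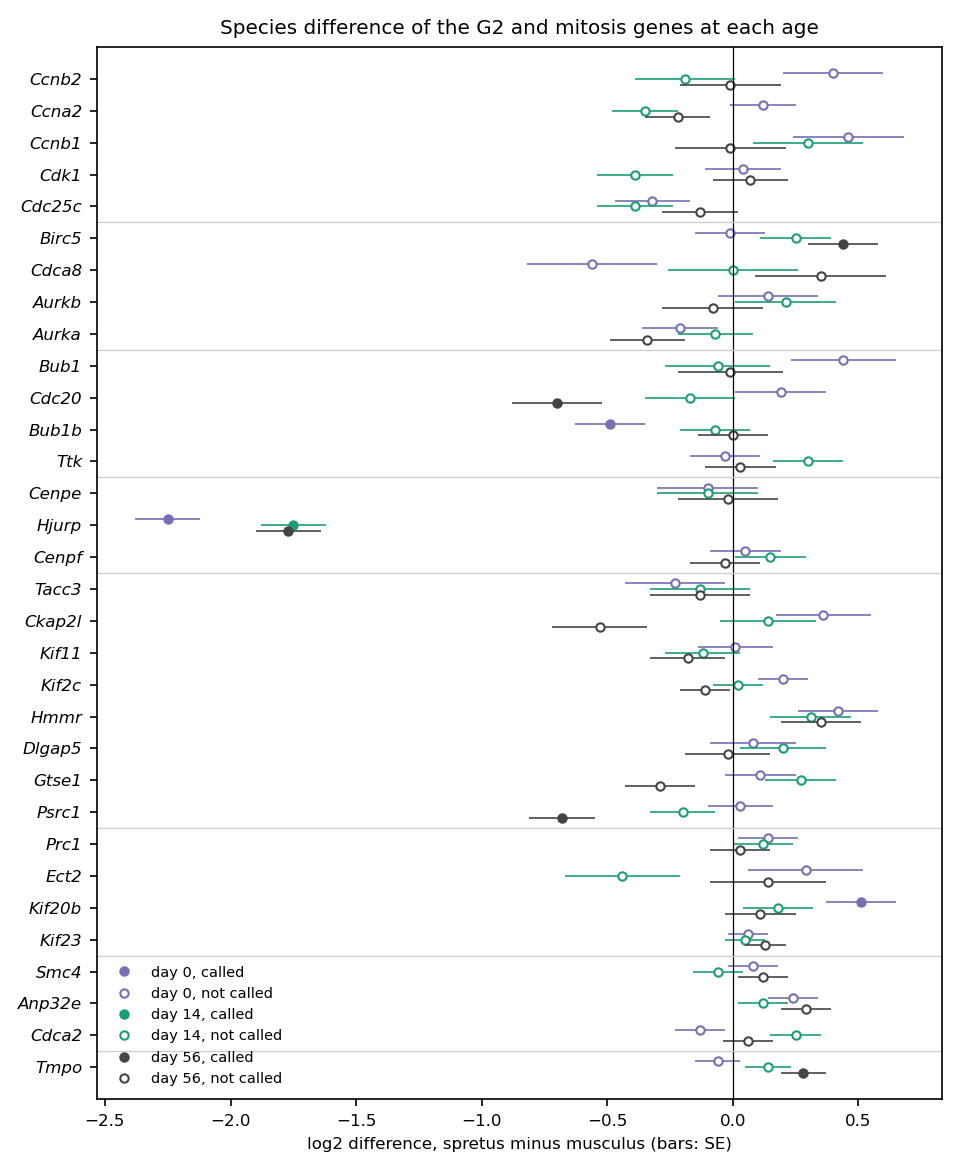
Log2 difference of spretus minus musculus for each of the 32 members at day 0, day 14 and day 56, with error bars of 1 SE and filled points where the adjusted p is under 0.05. Hjurp lies near -2 at each age (-2.25, -1.75 and -1.77), and the other members lie between -0.7 and 0.51.

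The change itself was compared between the species, as the spretus change minus the musculus change. From day 0 to day 14 no member was called (limma), against 1.11% of all genes, and 4 had an unadjusted p under 0.05, against 13.3% of all genes. These were Ccna2 (-0.46, adjusted p = 0.268), Ect2 (-0.73, adjusted p = 0.344), Hjurp (0.5, adjusted p = 0.237) and Cdca2 (0.38, adjusted p = 0.25). From day 14 to day 56 no member was called either, against 0.0405% of all genes, and 4 had an unadjusted p under 0.05, against 10.8%. These were Cdk1 (0.46, adjusted p = 0.447), Ckap2l (-0.67, adjusted p = 0.371), Gtse1 (-0.56, adjusted p = 0.351) and Psrc1 (-0.48, adjusted p = 0.354). The fall to day 14 was larger in spretus for 18 members and in musculus for 14. So the members called in only 1 species above were not shown to differ between them, and with 3 arrays a group this does not show that the falls were alike.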

How the data were processed

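The table the authors deposited holds log2 expression values of 12346 Ensembl genes in 18 arrays. The log base was read from the range of the values, and the array medians were close to each other. Any summarisation or normalization by the authors is not given in the sources used here. RNA was extracted with Trizol and labelled with biotin, per the labels' protocols. The authors' list of masked probes served to count such probes per member. No column lacked a sample (0 such columns), and no batch is given in the labels.

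The values were used as deposited. In R 4.3.3 with limma 3.58.1, 1 mean per group was fitted over all 18 arrays and 6 groups (12 residual degrees of freedom, 17.1 after moderation), and contrasts were tested two-sided with Benjamini-Hochberg adjustment over all 12346 genes, within each contrast, at 0.05. The procedure was tested on simulated data. The list's rule uses no measured value, but the members and lists were chosen with earlier results of these data known. Values per array are given for the 2 members of each role with the largest mean change to day 14 (1 in the role of 2 listed genes), members called between species or in a difference in change, up to 6 members not called to day 14, and the 3 with the largest later change; others are given by change and count. Replicate numbers occur in all groups, but deviations of same-numbered arrays correlated at -0.16 to 0.15, with 2 of 21 pairs over 0.1, so they were not taken as pairs. Alternatives were a replicate block, the contrast's arrays alone, quantile normalization, median centring, a variance trend, filters on dim genes and on masked probes, and leaving out each array. Lists of cell type markers and of other cell cycle genes were not used here, because the table's IDs could not be paired with their symbols. Promoter windows came from RefSeq (GRCm38.p6).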

Additional observations from a re-analysis of the deposited data

How the results depend on the processing

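The fall from day 0 to day 14 kept its direction in every member tested under each alternative, and the counts stayed within 1.5 times. With any 1 array left out, the number of members called was 28 to 30 in spretus and 28 to 30 in musculus for day 14 against day 0, 0 to 2 in spretus and 2 to 5 in musculus for day 56 against day 14, and 1 to 3, 1 to 2 and 2 to 5 between the species at days 0, 14 and 56. The differences in change gave 0 to 0. In these runs 35% to 36.8% of all genes in spretus and 37.4% to 39.6% in musculus were called in the first step. In the second step it was 4.33% to 6.19% in spretus and 8.27% to 9.46% in musculus. Between species it was 9.94% to 12.3% at day 0 and 8.52% to 11.9% at day 14. For day 56 the shares of all genes are not given here, in these runs or in those below. The day 56 counts therefore cannot be set beside them. With the replicate block the counts were 29 and 30 (spretus, then musculus) for the first step, 2 and 4 for the second, 3, 1 and 6 between species, and 0 for both differences in change. Of all genes, 39.3% in spretus and 41.2% in musculus were called with the block in the first step. In the second step it was 7.38% in spretus and 11.2% in musculus. Between species it was 13.8% at day 0 and 12.5% at day 14. No count of members moved by over 1.5 times with the block. With only the arrays of the contrast, 1 member was called between species at day 0 and 3 at day 56, against 3 and 5. The share of all genes called at day 0 was also lower in that run, 10.7% against 14.3%. The cause was not tested. Among genes with fewer than 7 masked probes, which leaves out Hjurp, 0 members were called between species at day 14 and 2 at day 56. Of all such genes 9.31% were called at day 14. Among genes whose mean over all arrays was above the dim limit, 24 members were tested. Of these, 21 in spretus and 22 in musculus fell to day 14. Of all genes in this run, 52.1% in spretus and 54.3% in musculus were called in either direction. In the later step in spretus 2 members fell and 1, Tmpo, rose, against 13.3% of all genes in this run called in either direction. That mean includes the high day 0 arrays, so a member below the limit at day 14, such as Birc5, could pass. This run therefore cannot show that the falls are free of dim signal. Every group mean was above the limit for 16 members. Relative to their own means, these 16 averaged 0.73 to 1.02 in the day 0 arrays of both species. They averaged -0.43 to -0.16 in the day 14 arrays. Of the first-step calls in the main analysis, 28 of 29 in spretus and 27 of 29 in musculus passed every alternative that tested the gene. For the second step it was 0 of 3 in spretus and 2 of 4 in musculus, and between species 1 of 3, 1 of 1 and 2 of 5. A filter that left a gene out was not counted against it. The dim filter left out Aurkb, Cdc25c, Cenpe, Ect2, Hmmr, Kif20b, Kif23 and Ttk. The masked probe filter left out Hjurp, which was the gene that passed at day 0 and at day 14. Medians over members moved by less than the spread between replicates in 116 of 120 cases. The dim limit is a percentile of gene means, not a measured background. The sizes of falls for members below it are therefore treated as not exact, and an effect of background was not tested.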
